A study of Mus musculus with 12 samples.

Results

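The genes described here encode enzymes that metabolise steroid hormones, and they were chosen by name: Hsd3b5, Hsd11b1, Hsd17b2, Hsd17b6, Srd5a1, Srd5a2, Akr1c6 and Cyp17a1. Of these 8 genes, 6 had a probe set with 1 gene symbol, each a single probe set, among 30142 genes named in this way, and all 6 were above the filter that kept 18725 genes for testing. The probe sets of Srd5a1 and Srd5a2, which encode steroid 5-alpha reductases, were not named here, and both genes are not analysed here. The livers came from C57BL/6 males 12 weeks old, and their RNA had been hybridised to 12 Affymetrix whole-transcript arrays, 4 per group. MatOb F2 males were grandsons of obese Avy/a females, MatOb F3 males were great-grandsons of such females, and control males had lean control parents. Avy stands for viable yellow, an agouti allele, and females carrying it over the nonagouti allele a become obese. The labels describe the males of both MatOb groups as sons of an obese mother while the series design calls them grandsons and great-grandsons, they do not give the generation of each control male, and they give neither the agouti genotype nor the body weight of any male. Whether each replicate was a different animal is not said in the labels, and a p-value then measures only the spread among these samples, possibly a technical one. With 4 arrays per group, that number sets the limit on precision.

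Steroid hormones act through receptors in the cytoplasm and nucleus, and the liver sets how much active hormone remains by reducing, oxidising, hydroxylating and conjugating it. Hydroxysteroid dehydrogenases switch a hydroxyl group to a keto group or back, which turns an active hormone into a weak one or the reverse. In mice many of these enzymes differ between male and female liver, a difference known to follow the sex-specific rhythm of growth hormone secretion.

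The stretches before the start of 2 genes, Hsd3b5 and Akr1c6, are shown because these were the members whose order over the 12 arrays was most alike. They are the 250 bases before the annotated start, read 5′ to 3′ on the gene's own strand, from RefSeq's GRCm38.p6 assembly. The Hsd3b5 window is chr3:98645535-98645784 on the minus strand and the Akr1c6 window is chr13:4434093-4434342 on the plus strand. Searched on both strands were the letters TTCNNNGAA, the pattern that STAT factors bind, TGTTCT, a half-site of steroid receptors, and AGGTCA, a half-site of other nuclear receptors. They were found in 7.02%, 16.1% and 14.02% of 32851 such windows of 27025 genes, and in neither of these 2, so no letter is in capitals. A stretch can hold TGTTCT and TTCNNNGAA in overlapping letters. Hsd17b2 and Cyp17a1 had no entry.
Hsd3b5: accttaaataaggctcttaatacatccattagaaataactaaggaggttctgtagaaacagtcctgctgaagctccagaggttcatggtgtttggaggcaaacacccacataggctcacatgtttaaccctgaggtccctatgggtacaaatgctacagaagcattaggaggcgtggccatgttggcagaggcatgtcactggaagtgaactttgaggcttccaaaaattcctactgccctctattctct
Akr1c6: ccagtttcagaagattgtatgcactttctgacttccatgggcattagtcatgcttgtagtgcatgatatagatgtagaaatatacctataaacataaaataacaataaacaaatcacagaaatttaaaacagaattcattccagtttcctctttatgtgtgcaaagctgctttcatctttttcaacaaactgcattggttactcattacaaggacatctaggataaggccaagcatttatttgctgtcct

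Some arrays stood apart before any comparison of groups. The mean level of 337 small nucleolar RNA genes split the arrays at its widest gap into a higher set of 7 (control replicates 2 and 4, MatOb F2 replicates 1 and 4, MatOb F3 replicates 1, 2 and 3) and a lower set of 5, a split that no label gives and that crosses every group. Control replicate 2 was the lowest array for 22.4% and the highest for 14.5% of the 18725 genes, and control replicate 3 the lowest for 19.1% and the highest for 26.3%. All 7 hepatocyte markers measured, albumin among them, were above the 95th percentile of 5222 negative control probe sets. Their summed log2 level ran from 88.5 to 89.6 in MatOb F2, from 89.1 to 89.4 in MatOb F3 and from 88.6 to 89.4 in control livers. Of 8 markers of adrenal and gonadal steroid-making cells, 0 passed that percentile. In whole liver, fewer cells of a type and less RNA per cell cannot be told apart.

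The 6 enzymes differed widely in how much they varied between arrays. Ranked by the SD within groups among the 18725 genes, Cyp17a1 was 77th, Hsd3b5 150th and Hsd17b6 244th, while Hsd17b2 was 1576th, Akr1c6 6934th and Hsd11b1 7347th. The highest array exceeded the lowest 5.94-fold for Hsd3b5 and 4.79-fold for Hsd17b6, but 1.81-fold for Hsd17b2, 1.60-fold for Akr1c6 and 1.27-fold for Hsd11b1. No fold is given for Cyp17a1, whose mean was under the 95th percentile of the negative controls. These ranks and folds describe the arrays and carry no test.

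**Figure D1:**
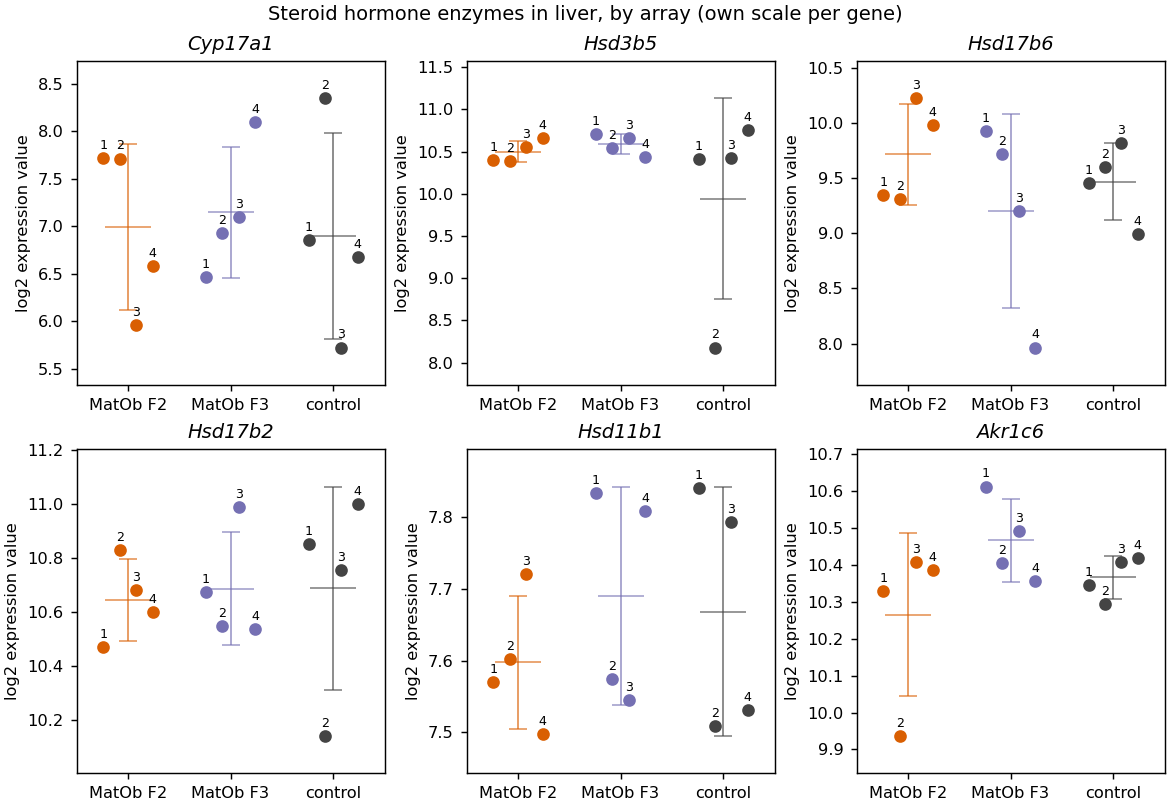
Log2 expression of the 6 enzymes on each array (points, with replicate numbers) in MatOb F2, MatOb F3 and control livers, with the group mean and SD as bars and a separate vertical scale per gene. The control bar of Hsd3b5 is wide through replicate 2 at 8.18, and the Cyp17a1 points spread from 5.73 to 8.35 across all 3 groups.

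Cyp17a1 encodes the hydroxylase and lyase that turns progestogens into androgens, a step best known from the gonads. Its log2 values were 7.72, 7.72, 5.96 and 6.58 in MatOb F2 replicates 1 to 4. MatOb F3 replicates 1 to 4 had 6.47, 6.93, 7.10 and 8.10. Control replicates 1 to 4 had 6.86, 8.35, 5.73 and 6.68. The highest and the lowest of all 12 values were both in control livers, and the 3 groups overlapped throughout. The means were 6.99 ± 0.87 in MatOb F2, 7.15 ± 0.69 in MatOb F3 and 6.90 ± 1.08 in control livers (SD, n = 4 each). The log2 difference was 0.09 for MatOb F2 minus control (SE 0.54, 95% interval −1.09 to 1.27) and 0.25 for MatOb F3 minus control (SE 0.54, interval −0.94 to 1.43). Without control replicate 2, the highest array, these were 0.57 and 0.73, and without MatOb F3 replicate 4 the difference of MatOb F3 from control was −0.07. Within the higher array set MatOb F3 minus control was −0.68, and within the lower set, where MatOb F3 had 1 array, it was 1.81. Its mean over the arrays, 7.02, lay above 94.7% of the negative control probe sets and so missed their 95th percentile of 7.05, the same bar to which the adrenal and gonadal markers were held. The summed log2 level of the 8 adrenal and gonadal markers ran from 36.7 to 37.6 in MatOb F2, from 36.7 to 37.2 in MatOb F3 and from 35.6 to 38.4 in control livers. The defining ones, Cyp11a1 for side-chain cleavage and Star for cholesterol import, stayed between 4.03 and 4.45 and between 4.71 and 5.09 on all arrays, against a median of 4.24 for the negative controls. The part of such cells in the Cyp17a1 values was not tested.

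Hsd3b5 encodes a 3-keto steroid reductase of mouse liver that is known for its higher level in males. It had log2 values of 10.40, 10.39, 10.55 and 10.66 in MatOb F2 replicates 1 to 4. The values were 10.71, 10.54, 10.66 and 10.44 in MatOb F3 replicates 1 to 4. In control replicates 1 to 4 they were 10.42, 8.18, 10.43 and 10.75. The other 11 arrays lay between 10.39 and 10.75, and control replicate 2 alone was far below them. The means were 10.50 ± 0.13 in MatOb F2, 10.59 ± 0.12 in MatOb F3 and 9.94 ± 1.19 in control livers (SD, n = 4 each). The fold over control was 1.47 for MatOb F2 (95% interval 0.781 to 2.77) and 1.56 for MatOb F3 (interval 0.830 to 2.95). Without control replicate 2 the log2 difference was −0.03 for MatOb F2 minus control, against 0.56 with it, and 0.06 for MatOb F3 minus control, against 0.65 with it. The probe set reads 1 of a group of closely similar Hsd3b copies, and how well its probes tell them apart is not given in the sources used here.

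In control replicate 2 Hsd3b5 deviated by −2.36 from the median of the other 11 arrays, the 3rd lowest such deviation of 18725 genes on that array. Other genes known to be higher in male liver were low on it as well. Of 19 male-biased genes tested, 13 (68.4%) had their lowest value there, against 22.4% of all genes. The median deviation of the male-biased genes from their means over the 12 arrays was −0.41 in control replicate 2 and between −0.06 and 0.13 on the other arrays. Among them Moxd1, a monooxygenase-like gene, was at 4.62 there and between 5.93 and 10.74 elsewhere. Cyp7b1, which hydroxylates oxysterols and androgen precursors, was at 9.08 there and at 10.33 or above elsewhere. Of 9 female-biased genes tested (15 had a named probe set), 6 had their highest value on that array, against 14.5% of all genes. Among them Cyp2b9, a steroid hydroxylase, was at 8.50 there and at no more than 4.49 elsewhere. Without that array its means were 4.16 in MatOb F2, 4.25 in MatOb F3 and 4.18 in control livers. These lie under the filter of 4.55, so Cyp2b9 was tested, and counted among the 6, only through this array. Cyp3a16 and Cyp3a44, also among the 6, are closely similar copies that could share probes. At 6.37 and 8.20 in MatOb F3 replicate 2, they nearly reached their 6.38 and 8.23 in control replicate 2. The male-biased genes Elovl3, a fatty acid elongase, and Cyp4a12a, a fatty acid hydroxylase, were not low in control replicate 2, at 10.21 and 11.73. What set this array apart was not tested.

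Hsd17b2 encodes the dehydrogenase that oxidises estradiol and testosterone to their weaker keto forms. MatOb F2 replicates 1 to 4 had log2 values of 10.47, 10.83, 10.68 and 10.60. MatOb F3 replicates 1 to 4 had 10.67, 10.55, 10.99 and 10.54. Control replicates 1 to 4 had 10.85, 10.14, 10.75 and 11.0001. Control livers again held both the lowest array, replicate 2, and the highest, replicate 4. The log2 difference was −0.04 for MatOb F2 minus control (SE 0.17, 95% interval −0.40 to 0.32) and −0.00068 for MatOb F3 minus control (SE 0.17, interval −0.36 to 0.36). Without control replicate 2 they were −0.22 (SE 0.12) and −0.18 (SE 0.12).

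Akr1c6 encodes the aldo-keto reductase that reduces androstenedione to testosterone in mouse liver. Its log2 values were 10.33, 9.94, 10.41 and 10.39 in MatOb F2 replicates 1 to 4. They were 10.61, 10.41, 10.49 and 10.36 in MatOb F3 replicates 1 to 4, and 10.35, 10.29, 10.41 and 10.42 in control replicates 1 to 4. MatOb F2 replicate 2 was the lowest array by a clear gap, and 2 MatOb F3 arrays lay above all control arrays. The means were 10.27 ± 0.22 in MatOb F2, 10.47 ± 0.11 in MatOb F3 and 10.37 ± 0.058 in control livers (SD, n = 4 each). The log2 difference of MatOb F3 minus MatOb F2 was 0.20 (SE 0.099, 95% interval −0.014 to 0.42, limma adjusted p = 0.99993), and its unadjusted p, over 0.05, was the smallest among the 18 tests of a member between groups. Without MatOb F2 replicate 2 it was 0.092 (SE 0.070), and MatOb F2 minus control was 0.0083 in place of −0.10. Akr1c6 too lies in a group of closely similar copies and its value carries the same uncertainty as that of Hsd3b5.

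MatOb F2 replicate 2 was low for many genes of 3 other steroid lists. It held the lowest value of 12 of 22 other hydroxysteroid dehydrogenases and reductases tested, of 6 of 10 steroid hydroxylases and of 8 of 13 conjugation genes, against 8.79% of all genes. It was lowest for 1 of the 6 enzymes, 0 of 8 synthesis genes and electron partners and 3 of 10 receptors and carriers. The first 3 lists hold families of closely similar copies that could share probes, so their counts are uncertain. The reductases Akr1c20, Akr1c14 and Akr1c19 were at 8.36, 9.27 and 6.87 there. Akr1d1, the steroid 5-beta reductase that opens the way to bile acids and inactive hormone, was at 8.25 there. All 6 Kupffer cell markers, which label the macrophages of the liver, had their highest value on the same array, against 10.2% of all genes. Their summed log2 level ran from 44.8 to 49.5 in MatOb F2, from 43.8 to 48.0 in MatOb F3 and from 45.5 to 46.8 in control livers, and 4 of the 6 passed the 95th percentile of the negative controls. Their part in the low enzyme values was not tested.

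Hsd17b6 encodes a dehydrogenase of the retinol dehydrogenase family that acts on androgens reduced in the A ring. It had log2 values of 9.35, 9.31, 10.22 and 9.98 in MatOb F2 replicates 1 to 4. MatOb F3 replicates 1 to 4 had 9.93, 9.72, 9.20 and 7.96, and control replicates 1 to 4 had 9.46, 9.60, 9.82 and 8.99. MatOb F3 replicate 4 was the lowest array and MatOb F2 replicate 3 the highest. The means were 9.72 ± 0.46 in MatOb F2, 9.20 ± 0.88 in MatOb F3 and 9.47 ± 0.35 in control livers (SD, n = 4 each). The log2 difference was 0.25 for MatOb F2 minus control (SE 0.37, 95% interval −0.56 to 1.05), −0.27 for MatOb F3 minus control (SE 0.37, interval −1.07 to 0.54) and −0.51 for MatOb F3 minus MatOb F2 (SE 0.37, interval −1.32 to 0.29). Without MatOb F3 replicate 4 the last 2 were 0.15 and −0.10. On that array Cyp17a1 was among the highest values and Hsd17b6 the lowest, with deviations of 1.25 and −1.64 from the medians of the other 11 arrays.

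Hsd11b1 encodes the reductase that regenerates active glucocorticoid from its inert keto form, with cofactor supplied in the endoplasmic reticulum by H6pd. Its log2 values were 7.57, 7.60, 7.72 and 7.498 in MatOb F2 replicates 1 to 4. MatOb F3 replicates 1 to 4 had 7.83, 7.57, 7.55 and 7.81, and control replicates 1 to 4 had 7.84, 7.51, 7.79 and 7.53. Both MatOb F3 and control livers held a pair of arrays near 7.8 and a pair near 7.5. The log2 difference was −0.07 for MatOb F2 minus control (SE 0.097, 95% interval −0.28 to 0.14) and 0.02 for MatOb F3 minus control (SE 0.097, interval −0.19 to 0.23). Over all groups it averaged 7.58 ± 0.12 on the 7 arrays of the higher small nucleolar RNA set and 7.75 ± 0.095 on the 5 of the lower set (SD). The sets overlapped, with values of 7.498 to 7.83 in the higher set and 7.60 to 7.84 in the lower, and the part of this split was not tested. H6pd averaged 9.13 ± 0.12 in MatOb F2, 8.95 ± 0.079 in MatOb F3 and 9.01 ± 0.14 in control livers (SD, n = 4 each). Hsd11b2, which runs the reaction the other way in kidney, differed from control by −0.10 (SE 0.091) in MatOb F2 and −0.13 (SE 0.091) in MatOb F3, and by −0.18 and −0.22 without control replicate 2. All its arrays lay between 4.87 and 5.31, under the negative controls' 95th percentile of 7.05.

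None of the 6 enzymes passed the test in any comparison. Limma with Benjamini-Hochberg adjustment over 18725 genes called 0 of 6 members for MatOb F2 minus control, MatOb F3 minus control and MatOb F3 minus MatOb F2, with 0.0% of all genes called in each. The members' adjusted p was 0.99992, 0.99977 and 0.99993 in the 3 comparisons. An unadjusted p under 0.05 was reached by 0 of 6 members in each, against 0.919%, 2.93% and 2.37% of all genes. Without control replicate 2 it was again 0 of 6 in each, while the genes of the whole table with such a p numbered 573, against 172 with it, for MatOb F2 minus control and 1210, against 548, for MatOb F3 minus control. Single members passed this unadjusted threshold, and none the adjusted one, under some other settings. Arrays of the groups compared did not overlap for 0 of 6 members, against 0.705%, 1.63% and 2.46% of all genes. In MatOb F3 against MatOb F2, 1.62% of all genes had every MatOb F3 array higher and 0.838% had every one lower. Among genes with an unadjusted p under 0.05 in that comparison, 298 were higher and 145 lower, and after quantile normalization 158 were higher and 257 lower. For MatOb F3 minus control the split was 308 higher and 240 lower, and 223 and 349 after quantile normalization. For MatOb F2 minus control it was 64 higher and 108 lower, and 77 and 79 after it. A test of any difference among the 3 groups likewise called 0 members and 0.0% of genes (members' adjusted p = 0.99996). Both MatOb comparisons use the same control arrays. A p over the threshold does not show that the groups were alike. The intervals of Cyp17a1, Hsd3b5 and Hsd17b6 reach differences of more than 1 log2 unit.

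**Figure D2:**
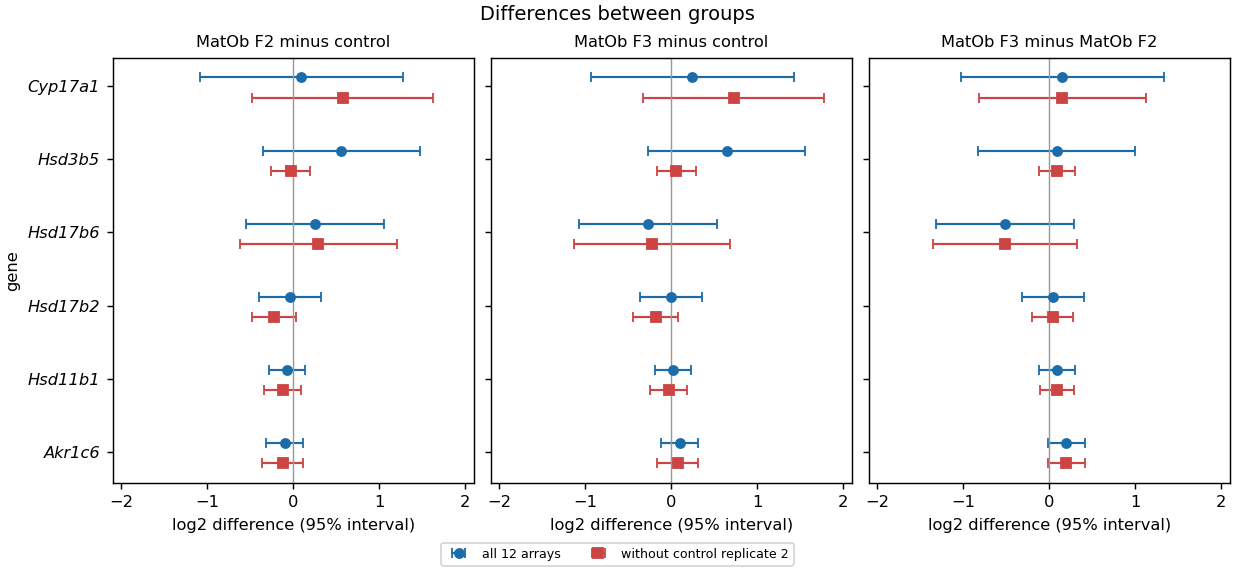
Log2 differences of the 6 enzymes between groups with 95% limma intervals, from all 12 arrays (blue circles) and without control replicate 2 (red squares). Every interval holds 0, and the Hsd3b5 differences from control are −0.03 and 0.06 without that array.

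The enzymes were also compared with each other over the 12 arrays, in 15 pairs, with permutation tests adjusted by Benjamini-Hochberg over the pairs. Hsd3b5 and Akr1c6 had the same order over arrays to a large degree (Spearman's rho 0.88, permutation p = 0.000390, adjusted p = 0.00585), the only pair of 15 to pass by rank. Their Pearson's r was 0.26 (permutation p = 0.202, adjusted p = 0.505) with control replicate 2 included and 0.67 without control replicates 2 and 4, the arrays farthest from the median of Hsd3b5. Within the higher array set of 7 arrays r was 0.59, and the lower set held too few arrays for a value. On deviations from group means r was 0.30 (permutation p = 0.277, adjusted p = 0.519). The rank test was not repeated under other settings. No pair passed by Pearson's r, and 3 had an unadjusted p under 0.05. Hsd3b5 and Hsd17b2 had r = 0.73 (rho 0.45, permutation p = 0.0116, adjusted p = 0.131). Their r was 0.35 without control replicate 2 and 0.12 without control replicates 2 and 4. Leaving out both narrows Hsd3b5 to between 10.39 and 10.71, which by itself can lower r. Within the higher array set, which holds both of these control arrays, r of Hsd3b5 and Hsd17b2 was 0.78. Hsd17b6 and Cyp17a1 ran in opposite directions with r = −0.61 (rho −0.65, permutation p = 0.0284, adjusted p = 0.142), and r was −0.38 without MatOb F2 replicate 3 and MatOb F3 replicate 4. Their r was −0.76 without control replicate 2 (permutation p = 0.00474, adjusted p = 0.0711) and −0.21 within the higher array set. Hsd3b5 and Cyp17a1 had r = −0.56 (rho −0.55, permutation p = 0.0175, adjusted p = 0.131), −0.37 without control replicates 2 and 4, and −0.85 within the higher array set. Akr1c6 and Cyp17a1 had rho −0.65 (permutation p = 0.0250, adjusted p = 0.125) and r = −0.48, with r = −0.57 without MatOb F2 replicate 2 and MatOb F3 replicate 1 and −0.72 within the higher array set. All 5 pairs that include Cyp17a1 had a negative r. Every pair was measured on the same arrays.

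Other genes followed single enzymes closely over the 12 arrays. The genes named here had the highest r with a member among the 1524 or 1525 protein-coding genes with an SD over arrays of at least 0.2, and their r is a description with no test. For Cyp17a1 this was As3mt, an arsenic methyltransferase, with r = 0.96 (rho 0.95, and r = 0.95 without control replicate 2). As3mt had log2 values of 7.97, 7.88, 7.21 and 7.43 in MatOb F2, 7.64, 7.64, 7.81 and 7.99 in MatOb F3 and 7.499, 8.22, 7.11 and 7.57 in control replicates 1 to 4. Its highest array was control replicate 2 and its lowest control replicate 3, as for Cyp17a1. The second gene for Cyp17a1 was Unc13b, a vesicle priming gene (r = 0.85).

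As3mt lies close to Cyp17a1 on chromosome 19, with 1 protein-coding gene, Borcs7, between them, a comparison chosen after these values were seen. Borcs7, of a lysosome positioning complex, had r = 0.63 with Cyp17a1, and Wbp1l on its other side r = 0.45. Borcs7 ran only from 5.36 to 5.58, under the negative controls' 95th percentile of 7.05 on every array. Whether the probes or transcripts of these neighbours overlap was not tested.

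For Akr1c6 the closest gene was its direct neighbour on chromosome 13, the reductase Akr1c20 (r = 0.89, rho 0.65), followed by the organic anion transporter Slco1a4 (r = 0.87, rho 0.24). Akr1c20 was at 9.26, 8.36, 9.17 and 9.13 in MatOb F2, at 9.29, 9.15, 9.21 and 9.15 in MatOb F3 and at 8.98, 9.10, 9.04 and 9.28 in control replicates 1 to 4. MatOb F2 replicate 2 was the lowest array for Akr1c6, Akr1c20 and Slco1a4 alike, at 9.94, 8.36 and 5.14. The other arrays lay at or above 10.29, 8.98 and 6.31. These r were not computed without MatOb F2 replicate 2. For Hsd3b5 the closest were Serpina12, a serpin, (r = 0.93, rho 0.09) and Ttc39c (r = 0.91, rho 0.74), and without control replicate 2 their r was −0.06 and 0.71. The neighbouring Hsd3b2, Hsd3b3 and Hsd3b6 had r of 0.63, 0.67 and 0.66 with Hsd3b5, and 0.22, 0.35 and 0.27 without that array. Hsd3b6 lay between 4.90 and 5.46, under the negative controls' 95th percentile of 7.05 on every array.

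**Figure D3:**
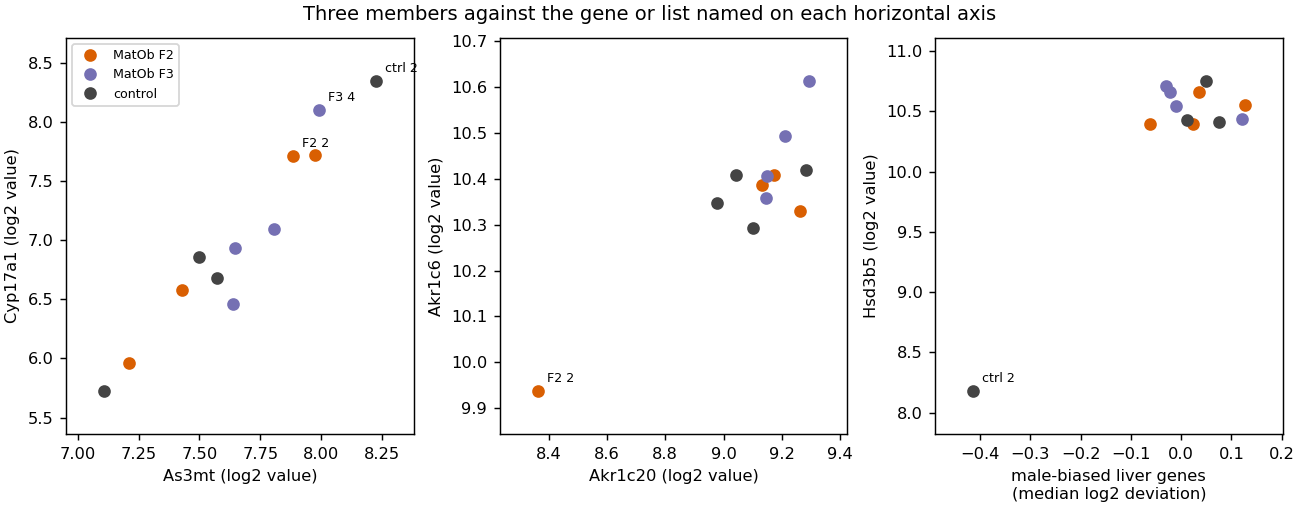
Log2 value of Cyp17a1 against As3mt, Akr1c6 against Akr1c20, and Hsd3b5 against the median log2 deviation of 19 male-biased liver genes, 1 point per array, coloured by group. The Cyp17a1 and As3mt points follow a line (r = 0.96), while single arrays stand apart in the other panels, MatOb F2 replicate 2 at 9.94 for Akr1c6 and control replicate 2 at 8.18 for Hsd3b5.

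For Hsd17b2 the closest genes were Slc22a7, an organic anion transporter, (r = 0.85, and 0.68 without control replicate 2) and Esr1, the estrogen receptor alpha gene (r = 0.84, and 0.71). Slc22a7 was at 5.65 in control replicate 2 and at 7.19 or above on every other array. For Hsd11b1 they were Igfbp3, which binds insulin-like growth factors, (r = 0.89, rho 0.94) and Depp1, a gene known to rise in fasting, (r = 0.84, rho 0.83). For Hsd17b6 they were Rsad2, an interferon-induced antiviral gene, (r = 0.83, rho 0.67) and Aqp4, a water channel, (r = 0.82, rho 0.86). These r stayed between 0.82 and 0.90 without control replicate 2 for Hsd11b1 and Hsd17b6. Rsad2, Aqp4, Unc13b, Esr1 and Igfbp3 were under the negative controls' 95th percentile of 7.05 on every array. Slco1a4 and Serpina12 reached 7.12 and 7.44 on their highest arrays.

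The wider steroid pathway was counted on lists of related genes, some of which share members. Limma called 0 genes of any list in any comparison, and the counts below are descriptions. Of 22 other hydroxysteroid dehydrogenases and reductases tested (28 listed), 19 were below control in MatOb F2 (median log2 difference −0.08, against −0.01 for all genes), and 12 were below without MatOb F2 replicate 2 (median −0.0031). Without that array and control replicate 2, 8 of the 22 were below (median 0.05). In MatOb F3, 12 of the 22 were below control (median −0.03), and 9 without control replicate 2 (median 0.0073). Akr1d1 averaged 8.75 ± 0.40 in MatOb F2, 9.24 ± 0.34 in MatOb F3 and 9.13 ± 0.22 in control livers (SD, n = 4 each). Its log2 difference was −0.38 for MatOb F2 minus control (SE 0.20), −0.21 without MatOb F2 replicate 2, and 0.49 for MatOb F3 minus MatOb F2 (SE 0.20, limma adjusted p = 0.99993), the last being 0.32 without MatOb F2 replicate 2. Akr1c14, a reductase of dihydrotestosterone, differed by −0.23 (SE 0.15) for MatOb F2 minus control, and by −0.05 without MatOb F2 replicate 2. Dhrs9, a short-chain dehydrogenase, differed by 0.33 (SE 0.18) for MatOb F3 minus control. MatOb F3 replicates 1 to 4 had 4.65, 4.68, 5.41 and 5.35 for it, all under the negative controls' 95th percentile of 7.05. Hsd3b2 differed by 0.31 (SE 0.21) for MatOb F3 minus control, and by 0.14 without control replicate 2. Srd5a3, named a 5-alpha reductase and known for its role in dolichol synthesis, differed from control by 0.06 (SE 0.094) in MatOb F2 and −0.05 (SE 0.094) in MatOb F3, and by 0.16 and 0.05 without control replicate 2. It lay between 5.72 and 6.16, under that percentile of 7.05 on every array.

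Among 10 steroid hydroxylases tested, 8 were below control in MatOb F2 (median −0.20, and 6 with a median of −0.04 without MatOb F2 replicate 2) and 5 in MatOb F3 (median −0.01). The medians were −0.10 and 0.02 without control replicate 2. Cyp2a4, a testosterone hydroxylase higher in female liver, averaged 10.57 ± 0.67 in MatOb F2, 10.54 ± 0.45 in MatOb F3 and 11.18 ± 0.17 in control livers (SD, n = 4 each). Its difference was −0.61 for MatOb F2 minus control (SE 0.29) and −0.64 for MatOb F3 minus control (SE 0.29, limma adjusted p = 0.99977). All 4 MatOb F2 arrays lay below all 4 control arrays for this gene, as for 0.401% of all genes. The gene was named for the lowest unadjusted p of its list in both comparisons, so this separation is no separate support. Its MatOb F2 difference was −0.28 without MatOb F2 replicate 2. Without control replicate 2 the differences were −0.54 in MatOb F2 and −0.57 in MatOb F3. How well the probe set of Cyp2a4 tells it from closely similar copies is not given in the sources used here. Cyp2b9 differed by −1.10 (SE 0.76) in MatOb F2 and −1.01 (SE 0.76) in MatOb F3, and by −0.02 and 0.07 without control replicate 2. Outside that array it lay between 4.07 and 4.49, near the negative controls' median of 4.24. It entered the test, and so these counts, only through that array. Cyp1a2, which hydroxylates estrogens and many drugs, differed by −0.21 (SE 0.14) for MatOb F2 minus control, by −0.12 without MatOb F2 replicate 2 and by −0.34 without control replicate 2. Cyp7b1 differed by 0.35 (SE 0.31) and 0.36 (SE 0.31), and by −0.05 and −0.03 without control replicate 2.

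Of 13 conjugation genes tested, 9 were below control in MatOb F2 (median −0.05, and 6 with a median of 0.06 without MatOb F2 replicate 2) and 6 in MatOb F3 (median 0.01, and 3 with a median of 0.06 without control replicate 2). Ugdh, which makes the glucuronic acid donor, averaged 8.36 ± 0.16 in MatOb F2, 8.26 ± 0.22 in MatOb F3 and 8.70 ± 0.45 in control livers (SD, n = 4 each). Its difference was −0.34 (SE 0.19) for MatOb F2 minus control and −0.44 (SE 0.19, limma adjusted p = 0.99977) for MatOb F3 minus control, and −0.13 and −0.23 without control replicate 2. The glucuronosyltransferases Ugt2b34 and Ugt2a3 differed by −0.22 (SE 0.17) for MatOb F2 and 0.30 (SE 0.15) for MatOb F3 minus control. Without MatOb F2 replicate 2 the Ugt2b34 difference was −0.03, and without control replicate 2 the Ugt2a3 difference was 0.15.

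Of 10 receptors and carriers tested, 6 were below control in each MatOb group (medians −0.02 and −0.04), and 6 and 7 without control replicate 2 (medians −0.03 and −0.08). Without MatOb F2 replicate 2 the MatOb F2 count was 5 (median −0.0084), and without both arrays it was 4 (median 0.04). Nr3c1, the glucocorticoid receptor gene, differed by −0.0049 (SE 0.064) for MatOb F2 minus control and by 0.10 (SE 0.064) for MatOb F3 minus control. Fkbp5, a receptor chaperone gene that glucocorticoids induce, differed by 0.30 (SE 0.18) and Fkbp4, another receptor chaperone, by −0.22 (SE 0.15) for MatOb F2 minus control. Fkbp5 lay between 5.96 and 6.91, under the negative controls' 95th percentile of 7.05 on every array. Serpina6, the carrier of glucocorticoids in blood, differed by −0.16 (SE 0.17) in MatOb F2 and −0.30 (SE 0.17) in MatOb F3, and −0.04 and −0.19 without control replicate 2. Without MatOb F2 replicate 2 the differences of Fkbp4 and Serpina6 in MatOb F2 were −0.11 and −0.04. Por, the electron donor of the hydroxylases, had no named probe set and is not analysed here. Of 8 synthesis genes and electron partners tested, 4 lay on each side of control in both MatOb groups (medians 0.03 and −0.01). Without control replicate 2, 5 lay below in MatOb F2 (median −0.02) and 6 in MatOb F3 (median −0.05), and without MatOb F2 replicate 2, 2 lay below in MatOb F2. Within that list the adrenal enzyme genes Cyp11b1 and Cyp11b2 differed by −0.08 (SE 0.086) for MatOb F2 and 0.12 (SE 0.070) for MatOb F3 minus control, with all arrays between 4.46 and 4.89, and the Cyp11b1 difference was −0.13 without control replicate 2.

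**Figure D4:**
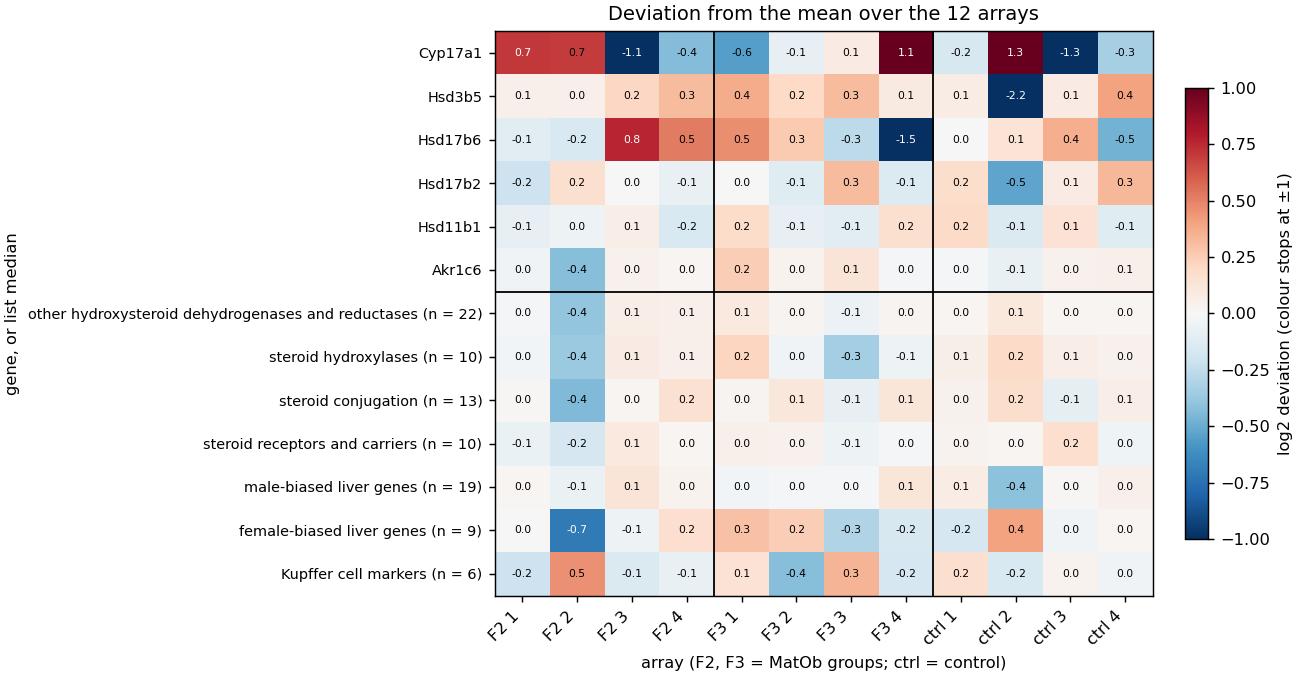
Log2 deviation from the mean over the 12 arrays for the 6 enzymes (upper rows) and the median deviation of 7 gene lists (lower rows), 1 column per array, with MatOb F2 and MatOb F3 columns left of control. MatOb F2 replicate 2 is low for 3 steroid lists and the female-biased genes and high for Kupffer cell markers, and control replicate 2 is low for Hsd3b5 and the male-biased genes.

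The male-biased genes lay above control for 13 of 19 in both MatOb F2 (median 0.05) and MatOb F3 (median 0.07), and for 11 and 10 of 19 without control replicate 2 (medians 0.04 and 0.01). In MatOb F2, 15 of 19 lay above control without MatOb F2 replicate 2 (median 0.13) and 9 of 19 without both arrays (median −0.0026). The complement gene C8a differed by 0.34 (SE 0.20) and Susd4, a complement regulator, by −0.31 (SE 0.18) for MatOb F2 minus control, and by 0.099 and −0.51 without control replicate 2. The organic anion transporter Slco1a1 and the coenzyme A hydrolase Nudt7 differed by 0.24 (SE 0.11) and 0.29 (SE 0.13) for MatOb F3 minus control, and by 0.17 and 0.15 without control replicate 2. The female-biased genes lay below control for 7 of 9 in MatOb F2 (median −0.24) and 6 of 9 in MatOb F3 (median −0.03). Cyp2b9, tested only through control replicate 2, is among the 9. Without control replicate 2 the counts below control were 6 of 9 (median −0.09) and 2 of 9 (median 0.10). Without MatOb F2 replicate 2 the MatOb F2 count stayed at 7 of 9 with a median of −0.04, and without both arrays it was 3 of 9 (median 0.05).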

How the data were processed

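Log2 expression values per probe set were deposited by the authors, 1 column for each of 12 arrays, and the submitters' processing notes name Affymetrix Expression Console. Its version, background correction, normalization and summarization were not given in the sources used here. Values between 0.73 and 13.64 show the log2 scale. Array medians lay between 4.49 and 4.60. Of 72688 probe sets, 30604 had 1 symbol in the platform annotation, 2146 several, and 39938 were unnamed here. Of 23054 with an Entrez identifier, 22818 matched RefSeq's GRCm38.p6 gene table, which updated 827 symbols. The brightest probe set stood for each of 30142 genes, and 18725 with a mean over 4.55 were tested.

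All 12 arrays were fitted with limma 3.58.1 in R 4.3.3 (9 residual degrees of freedom, no covariate), with Benjamini-Hochberg adjustment over all genes tested and a threshold of 0.05. The test was checked on simulated data. Correlations used 100000 permutations (scipy 1.17.1). The members and lists were chosen with earlier results of these data known. Named were all members, the 2 list genes with the lowest unadjusted p for each MatOb group against control, the genes of fixed roles, and the 2 most similar protein-coding genes per member. Genes singled out for 1 array or for their place beside a member were chosen after their values were seen. Alternatives were another normalization, filter, probe set rule or variance model, array weights, blocks by replicate number and array set, each set alone, and each array left out. The fits without several arrays were added after seeing the data. Arrays with the same replicate number were not more alike than others by the median r of their deviations from group means.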

Additional observations from a re-analysis of the deposited data

Results flagged for a closer look

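In 18 checks of a group of 4 arrays, 6 enzymes in 3 groups, 2 arrays stood apart by Dixon's criterion at 95%, and chance flags about 1 in 20 such groups. Hsd3b5 was at 8.18 in control replicate 2 while the other control arrays lay between 10.42 and 10.75, a gap of 0.870 of the group's range. Akr1c6 was at 9.94 in MatOb F2 replicate 2 while the other MatOb F2 arrays lay between 10.33 and 10.41, a gap of 0.834 of the range. No cause was tested for either.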

How the results depend on the processing

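Across 26 alternatives, 18 differences of 6 enzymes between groups were followed and 0 passed the threshold (smallest adjusted p of a member 0.557). Of the 18, 5 kept their sign under every alternative, 10 changed it when some 1 array was left out and 11 under another setting. The cause was not tested. With 1 array left out, MatOb F2 minus control ran from −0.031 to 0.83 for Hsd3b5, −0.22 to 0.063 for Hsd17b2, −0.15 to 0.0083 for Akr1c6 and −0.30 to 0.57 for Cyp17a1. MatOb F3 minus control ran from −0.031 to 0.080 for Hsd11b1, −0.18 to 0.10 for Hsd17b2, −0.51 to 0.15 for Hsd17b6 and −0.15 to 0.73 for Cyp17a1. MatOb F3 minus MatOb F2 ran from −0.059 to 0.10 for Hsd17b2 and −0.19 to 0.40 for Cyp17a1. Within the higher array set MatOb F2 minus control turned to 0.014 for Hsd11b1, 0.0027 for Akr1c6 and −0.36 for Cyp17a1, MatOb F3 minus control to 0.17 for Hsd17b2, 0.32 for Hsd17b6 and −0.68 for Cyp17a1, and MatOb F3 minus MatOb F2 to −0.32 for Cyp17a1. Within the lower set MatOb F3 minus control turned to −0.0082 for Hsd11b1 and −0.020 for Akr1c6, and MatOb F3 minus MatOb F2 to −0.035 for Hsd3b5 and −0.22 for Hsd17b2. MatOb F3 minus control also turned with the set as a block (Hsd17b2, 0.027), array weights (Hsd17b6, 0.11) and 3 lone arrays left out (Hsd11b1, −0.071, and Hsd17b6, 0.19), and MatOb F3 minus MatOb F2 with quantile normalization (Hsd17b2, −0.027). Genes called, 0 with all arrays, were 2 for MatOb F3 minus control, 3 for MatOb F3 minus MatOb F2 and 1 for any difference within the lower set, where the lone MatOb F3 array is assumed to vary like the others. At an unadjusted p under 0.05 they were 172, 548, 443 and 318, and 573, 1210, 546 and 637 without control replicate 2, 966, 970, 1255 and 1052 with array weights, and 1374, 1677, 953 and 1209 with 3 lone arrays left out. Deviations from group means gave 1 pair of enzymes past the threshold, Hsd3b5 and Hsd17b2 (r = 0.83, permutation p adjusted 0.0303). Both genes were lowest in control replicate 2, and the deviations were not tested again without it. On the values themselves the pair's r was 0.35 without that array (permutation p = 0.278). Deviations of same-numbered arrays were not more alike than those of others (median r −0.23 over 12 pairs, against 0.16 over 36 other pairs). With the replicate number as a block 140, 409 and 341 genes had an unadjusted p under 0.05 and 0 genes were called in each comparison. Under that block 1 enzyme, Akr1c6, had an unadjusted p under 0.05 for MatOb F3 minus MatOb F2 (0.20), as it did without MatOb F2 replicate 3 or 4 or MatOb F3 replicate 4. Such a p was also reached by Hsd17b6 and Cyp17a1 for MatOb F3 minus control (−1.68 and 1.81) and Hsd17b6 for MatOb F3 minus MatOb F2 (−1.80) within the lower set, and by Hsd17b2 for MatOb F2 minus control with 3 lone arrays left out (−0.29).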

Other observations

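The other genes beside the members on their chromosomes gave further values, chosen after the data were seen and reported as descriptions over 12 arrays. Nt5c2, a nucleotidase gene near As3mt, had r = 0.71 with Cyp17a1 (rho 0.77, and r = 0.70 without control replicate 2). Plcg2, a phospholipase gene near Hsd17b2, had r = 0.73 with it (rho 0.78, and r = 0.70 without control replicate 2), and Cmip, beyond Plcg2, had r = −0.71 (rho −0.59). Plcg2 ran only from 5.10 to 5.43 (SD 0.098), under the negative controls' 95th percentile of 7.05 on every array. G0s2, a lipase inhibitor gene next to Hsd11b1, had r = −0.47 with it (rho −0.42). Rdh7, a retinol dehydrogenase gene near Hsd17b6, ran only from 11.72 to 11.94 over the arrays and had r = 0.21 with it.

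Cyp21a1, the adrenal hydroxylase gene of mineralocorticoid and glucocorticoid synthesis, varied more than the other adrenal markers. It averaged 6.80 ± 0.22 in MatOb F2, 6.45 ± 0.18 in MatOb F3 and 6.60 ± 0.59 in control livers (SD, n = 4 each). Its lowest array was control replicate 2, at 5.87, and its highest control replicate 1, at 7.30. Its mean lay above 92.0% of the negative control probe sets.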
